A study of Mus musculus with 19 samples.

Results

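Gene expression in the left prelimbic cortex of mice was compared between 9 libraries from mice given c-MSST and 10 from mice without it, with MK-801 as a second term of an additive model. All 19 of the 19 libraries of the series entered, each placed by its title. The Control group (6 libraries) received saline and the SCZ group (4 libraries) received MK-801 at 0.2 mg/kg, both as daily intraperitoneal injections for 2 weeks. The Control+c-MSST (5 libraries) and SCZ+c-MSST (4 libraries) groups received saline or MK-801 in the same way, then 1 stereotactic injection of ferumoxytol iron oxide nanoparticles into the left prelimbic cortex, and were then kept in a pulsed magnetic field. Tissue was taken on day 3 after surgery, a day given for every group. The labels do not describe any surgery or vehicle injection of mice without c-MSST. Nanoparticles, field, surgery and injection therefore cannot be told apart. No strain, sex, age or batch is given, and nothing says that the libraries of a group came from separate animals, so the p values measure the spread between these samples.

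MK-801 blocks the channel of the NMDA receptor, and repeated dosing in rodents is used to model features of schizophrenia. Magnetic nanoparticles can pull on or warm the cells that hold them when a field is applied, and c-MSST uses this to stimulate neurons without a wire. Ferumoxytol is a coated iron oxide that is taken up by phagocytes, which store its iron in ferritin. The lists described below therefore cover synaptic and activity genes, mechanically gated channels, iron handling, glia, inflammation and heat shock.

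Library totals ran from 60577337 to 75090222 counts with c-MSST and from 50140626 to 82416746 without it (exact permutation within the MK-801 and saline arms, two-sided, p = 0.512, adjusted p = 0.512 over 2 tests). The genes detected ran from 16531 to 16788 and from 16430 to 16993 (exact permutation p = 0.496, adjusted p = 0.512). Genes of neurons in general were high in every library. The summed level of 12 of them was between 5528 and 6268 CPM (counts scaled to library size after TMM normalization). This sum does not tell cortical from other neurons. Markers of neighbouring tissue varied. The summed level of 12 striatal markers was 157 to 1602 CPM in Control and 209 to 1329 CPM in Control+c-MSST. It was 1490 to 1935 CPM in SCZ and 954 to 2033 CPM in SCZ+c-MSST, so the lowest levels were in saline mice. Zic1, which marks septal and other medial forebrain cells, was high in 6 libraries (34.5 to 51.6 CPM) and at 9.65 to 16.9 CPM in the other 13. The 6 were 3 of the Control libraries (replicates 2, 4 and 5) and 3 of SCZ (replicates 2, 3 and 5), so all were without c-MSST. Ttr, which the choroid plexus makes, reached 1607 CPM in Control replicate 2 and 150 CPM in replicate 3 of the same group, where no other library passed 7.78 CPM.

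Il33 and Gatm fell with c-MSST, and they were the only genes to pass the test (edgeR, adjusted p under 0.05). These 2 genes are 0.0122% of the 16417 tested, and no gene rose (0%). The median log2 fold change of all tested genes was -0.011. At an unadjusted p under 0.05 there were 2726 genes, 16.6% of those tested, of which 1367 were higher (8.33%) and 1359 lower (8.28%). At an adjusted p under 0.1, a threshold added after the data were seen, there were 269 genes (1.64%), 150 higher (0.914%) and 119 lower (0.725%). DESeq2 called 527 genes at an adjusted p under 0.05, among them Il33, Gatm and 268 of these 269.

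**Figure D1:**
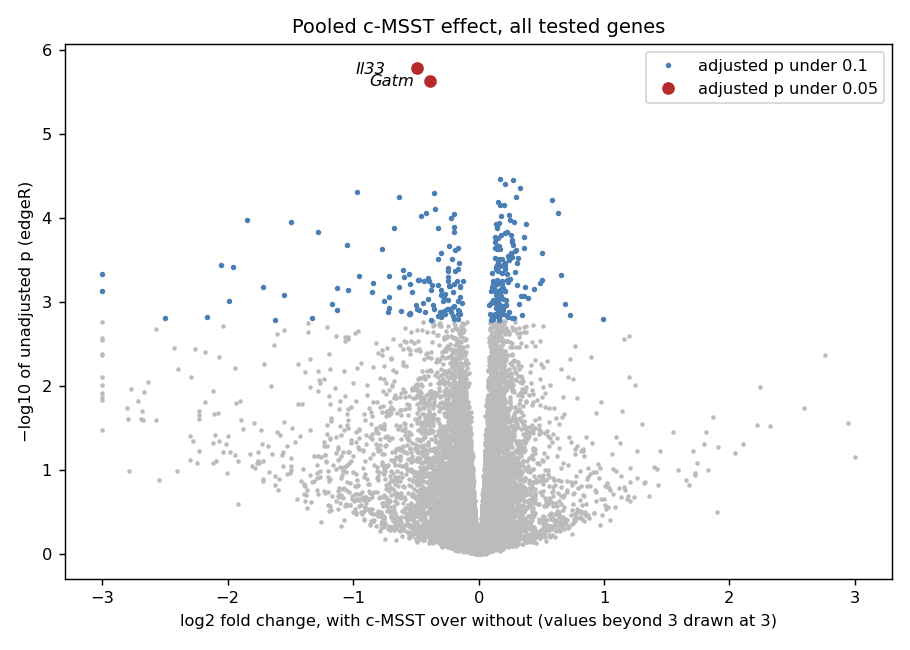
Each point is 1 of 16417 tested genes, with its log2 fold change for c-MSST against none on the x axis and −log10 of the unadjusted edgeR p on the y axis. Il33 (log2 fold change -0.49) and Gatm (-0.38) stand above all other genes, and the 150 higher and 119 lower genes at an adjusted p under 0.1 are in blue or red.

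Il33 encodes interleukin-33, a cytokine of the interleukin-1 family that is held in the nucleus of oligodendrocytes and astrocytes and released on damage. Gatm encodes glycine amidinotransferase, the enzyme of the first step of creatine synthesis. In mm10 (GENCODE M21), Il33 lies on the plus strand at chr19:29925114-29960718 with 5 annotated transcripts, and Gatm on the minus strand at chr2:122594467-122611303 with 3. The 250 bases before their annotated starts are shown because these are the called genes (RefSeq, GRCm38.p6, 5′ to 3′ on the gene's strand). Capitals mark matches on either strand to TATAAA (the TATA box) and CCAAT (whose other strand reads ATTGG). Neither GGGCGG (the GC box) nor TGACTCA (an AP-1 site) matched in these windows. The windows are chr19:29924863-29925112 and chr19:29945540-29945789 for Il33 and chr2:122611278-122611527 for Gatm.
Il33, upstream start: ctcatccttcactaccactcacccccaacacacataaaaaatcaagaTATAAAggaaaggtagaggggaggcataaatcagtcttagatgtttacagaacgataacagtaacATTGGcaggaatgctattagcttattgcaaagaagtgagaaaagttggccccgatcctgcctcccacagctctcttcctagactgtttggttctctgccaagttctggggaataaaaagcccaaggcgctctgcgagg
Il33, downstream start: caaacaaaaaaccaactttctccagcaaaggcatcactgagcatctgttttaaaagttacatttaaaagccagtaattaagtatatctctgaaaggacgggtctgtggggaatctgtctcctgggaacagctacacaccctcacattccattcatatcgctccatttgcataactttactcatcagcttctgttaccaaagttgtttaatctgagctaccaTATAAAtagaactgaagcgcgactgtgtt
Gatm: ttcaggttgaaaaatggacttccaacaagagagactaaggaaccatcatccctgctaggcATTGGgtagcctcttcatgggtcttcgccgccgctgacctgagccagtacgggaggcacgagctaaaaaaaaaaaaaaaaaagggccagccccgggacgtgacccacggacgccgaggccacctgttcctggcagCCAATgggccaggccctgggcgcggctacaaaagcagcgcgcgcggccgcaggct

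Il33 had a TATA box match before both starts, which 9.21% of the 12919 tested genes with a window have before at least 1 start. Gatm had CCAAT matches at 2 places, and 39.8% of these genes have at least 1. A match is a description of the letters and not a measured binding site. The TATA and CCAAT letters were added to the search after the results were known.

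Il33 stood at 21.6 CPM (lowest), 24.1 CPM (median) and 27.6 CPM (highest) in the 6 Control libraries. In Control+c-MSST replicates 1, 2, 4, 6 and 7 it stood at 18, 16.6, 14, 13.3 and 16.4 CPM. Every Control+c-MSST library was therefore below every Control library. In SCZ replicates 1, 2, 3 and 5 it stood at 28.5, 26.8, 26.4 and 31.1 CPM. SCZ+c-MSST replicates 2, 3, 4 and 5 had 22.6, 22.8, 20.3 and 25.1 CPM. These groups did not overlap either, but the SCZ+c-MSST libraries overlapped with those of Control. The pooled log2 fold change was -0.49 (SE 0.07, adjusted p = 0.0189). The groups averaged 24.1 ± 2.31 CPM (SD, n = 6) in Control, 15.7 ± 1.97 (n = 5) in Control+c-MSST, 28.2 ± 2.17 (n = 4) in SCZ and 22.7 ± 1.98 (n = 4) in SCZ+c-MSST.

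Gatm stood at 53 CPM (lowest), 69.1 CPM (median) and 74.0 CPM (highest) in the 6 Control libraries. In Control+c-MSST replicates 1, 2, 4, 6 and 7 it stood at 49.8, 53.6, 45.1, 44.9 and 52.7 CPM. Only Control replicate 3, the lowest of its group, overlapped with these. In SCZ replicates 1, 2, 3 and 5 it stood at 82.9, 74.0, 72.9 and 81.3 CPM. SCZ+c-MSST replicates 2, 3, 4 and 5 had 62.6, 64.7, 59.7 and 66.2 CPM. The MK-801 groups did not overlap. The pooled log2 fold change was -0.38 (SE 0.06, adjusted p = 0.0189). The groups averaged 67.2 ± 7.90 CPM (SD, n = 6) in Control, 49.2 ± 4.08 (n = 5) in Control+c-MSST, 77.8 ± 5.06 (n = 4) in SCZ and 63.3 ± 2.80 (n = 4) in SCZ+c-MSST.

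**Figure D2:**
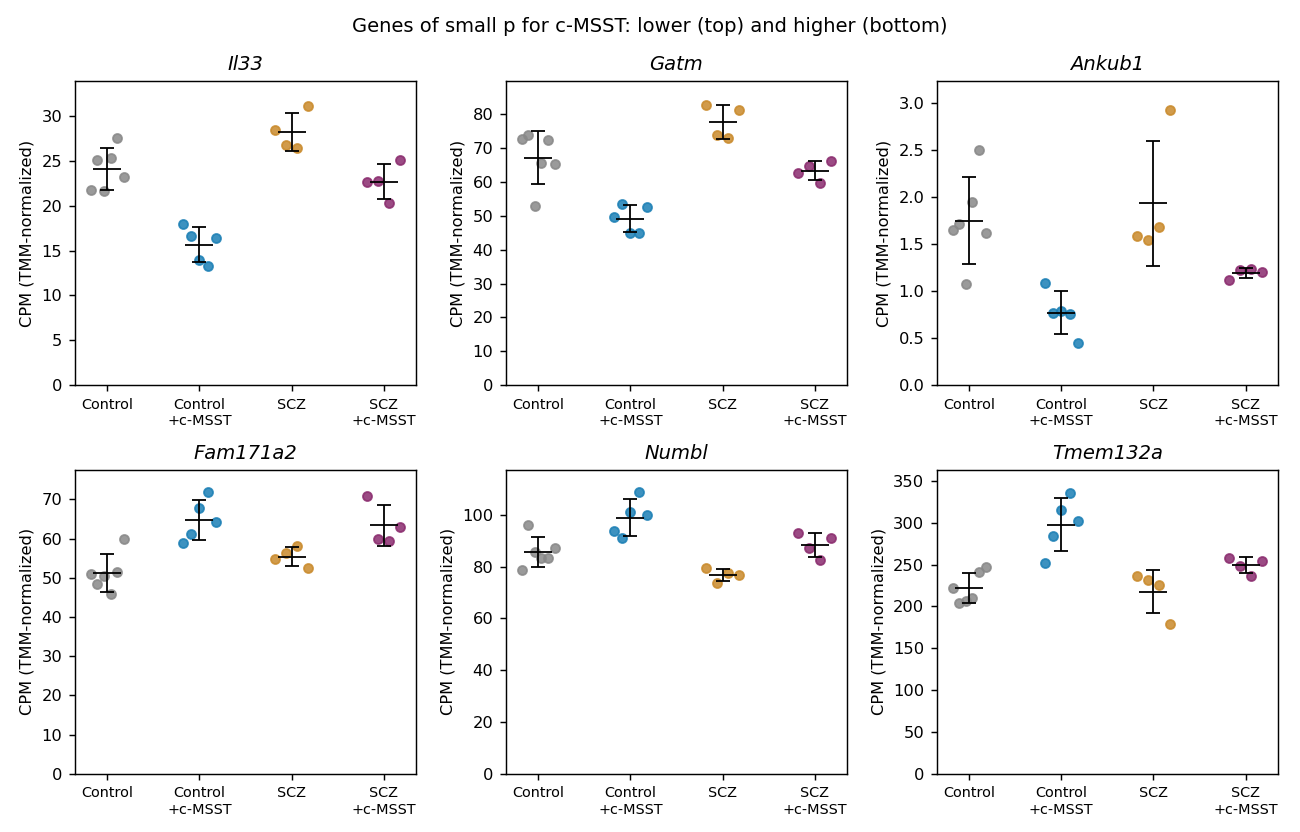
CPM (TMM-normalized, y axis from 0) of the 3 lower genes with the smallest p and 3 of the higher ones (Fam171a2, Numbl and Tmem132a), by group, with 1 point per library and the mean ± SD. The c-MSST groups are below their own controls for Il33, and 1 Control library, at 53 CPM, reaches the Control+c-MSST range for Gatm.

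In bulk tissue, fewer cells of a type and less RNA per cell cannot be told apart, and oligodendrocytes are a known site of both Il33 and Gatm. All 16 of 16 myelin genes had a negative log2 fold change (median -0.43), where 46.4% of all tested genes had a positive one. Mbp, a main protein of the myelin sheath, stood at 1628 ± 330 CPM in Control and 1064 ± 369 CPM in Control+c-MSST, where replicate 6 had only 446 CPM. With the myelin score (the mean of these genes' centred log2 CPM) as a covariate, added after the data were seen, the log2 fold changes were -0.36 for Il33 and -0.27 for Gatm (adjusted p = 0.588 for both). With the septal score as a covariate they were -0.40 and -0.33 (adjusted p = 0.267 for both). Without the 6 libraries of high Zic1 they were -0.45 and -0.37, in a fit that kept only replicate 1 of SCZ. Without Control replicates 2 and 3 they were -0.49 and -0.40 and passed (edgeR, adjusted p = 0.0482 and 0.0038). How far the tissue content of the samples enters the result was not tested beyond these values.

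**Figure D3:**
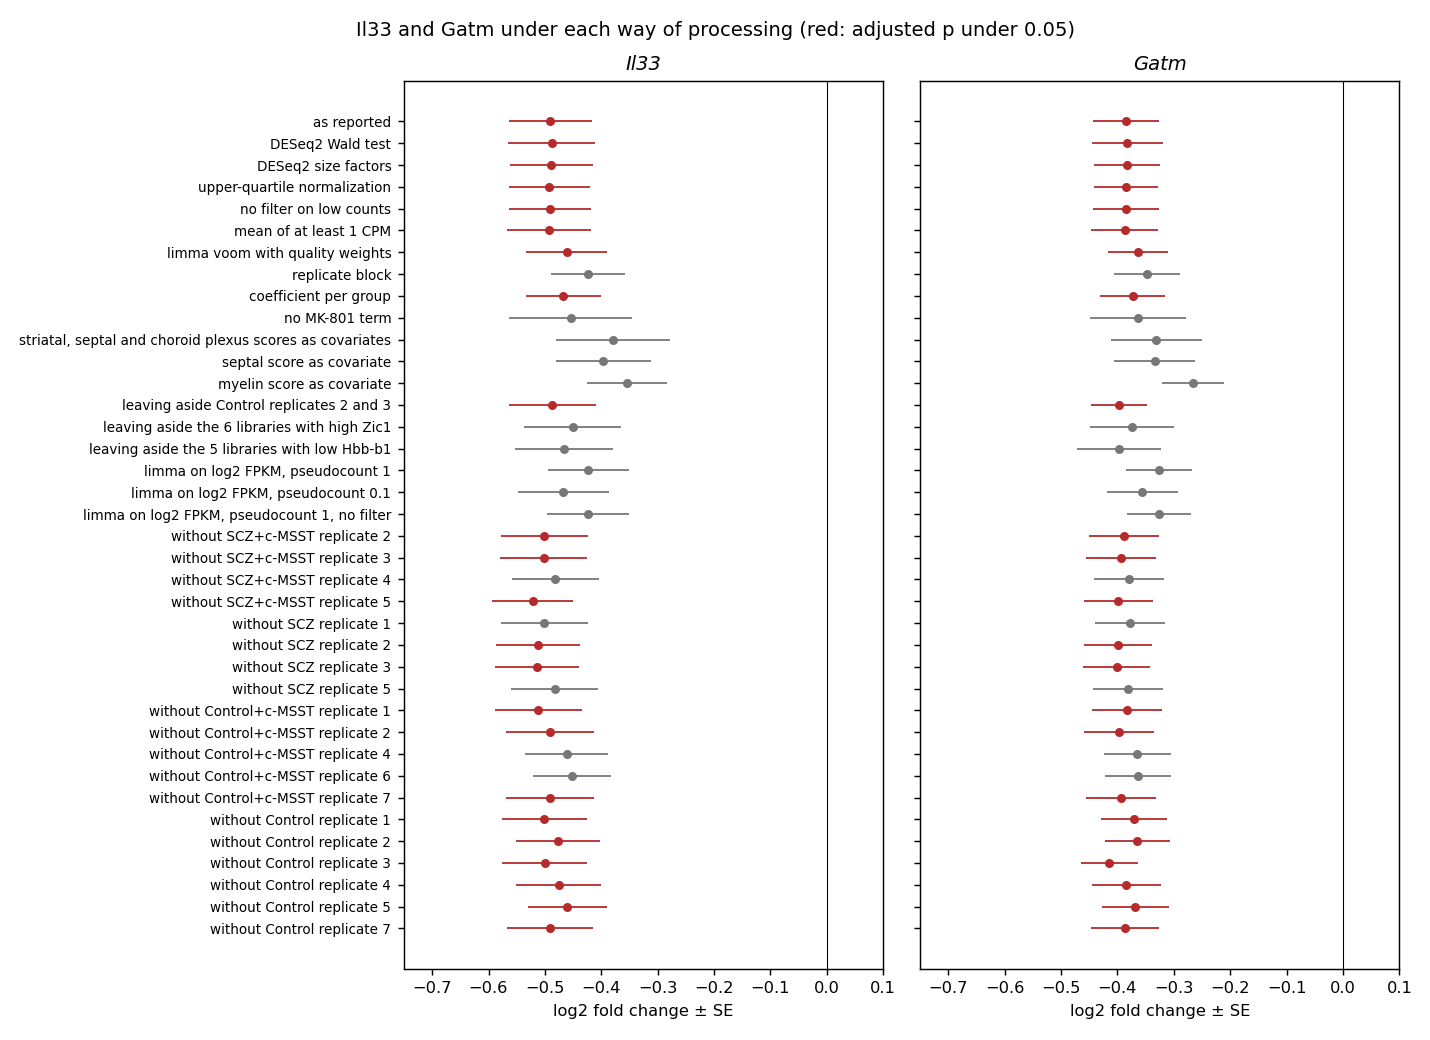
Log2 fold change for c-MSST (x axis, ± SE) of Il33 and Gatm under each way of processing, with red for an adjusted p under 0.05. Il33 ran from -0.52 to -0.36 and Gatm from -0.41 to -0.27 over 37 alternatives, and each passed in 22 of the 37.

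With each library left out in turn, the log2 fold change of Il33 was -0.52 to -0.45 and that of Gatm -0.41 to -0.36, but the calls depended on single libraries. Both genes lost their call without SCZ replicates 1 or 5, Control+c-MSST replicates 4 or 6, or SCZ+c-MSST replicate 4, each of which left 0 genes called. In those 5 fits the adjusted p was 0.0508 to 0.0604 for Il33 and 0.0525 to 0.0623 for Gatm. Without Control replicate 7 there were 231 genes, 137 higher and 94 lower, and without Control+c-MSST replicate 1 there were 6. Leaving out any other library gave 2 or 3.

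The next 6 lower genes all had an adjusted p of 0.0626 and did not pass. Parp4, a poly(ADP-ribose) polymerase of the vault particle (chr14:56575619-56659794), stood at 12.7 to 16.8 CPM in Control and at 9.39 to 12.1 CPM in Control+c-MSST. It stood at 14.1 to 16.4 CPM in SCZ and 11 to 13.7 CPM in SCZ+c-MSST, with no overlap in either arm (pooled log2 fold change -0.35, SE 0.07). Mmrn2, an extracellular glycoprotein of endothelium (chr14:34375465-34404287), had a log2 fold change of -0.42 (SE 0.09). Its groups were apart in the MK-801 arm (7.33 to 9.24 CPM in SCZ, 5.10 to 5.94 in SCZ+c-MSST) but overlapped in the saline arm. Ankub1 (chr3:57657393-57692799) was a low gene, at 1.08 to 2.5 CPM in Control and 0.45 to 1.09 CPM in Control+c-MSST (-0.97, SE 0.19). The centrosomal gene Kiz (chr2:146855864-146970097) had -0.35 (SE 0.07), and the zinc finger genes Zfp113 (chr5:138139702-138155744) and Zbtb41 (chr1:139422288-139453005) had -0.63 (SE 0.12) and -0.19 (SE 0.04).

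The 8 higher genes with the smallest p also had an adjusted p of 0.0626, so 7 of them are given as values. Ap2a1, a subunit of the AP-2 adaptor of clathrin-mediated endocytosis (chr7:44900373-44929496), had no overlap in either arm. It stood at 256 to 295 CPM in Control, 302 to 324 in Control+c-MSST, 264 to 288 in SCZ and 290 to 312 in SCZ+c-MSST (log2 fold change 0.15, SE 0.03). Numbl, a relative of the Notch regulator Numb (chr7:27258433-27282144), and Fam171a2 (chr11:102436981-102447682) had 0.21 (SE 0.04) and 0.28 (SE 0.05). Pitpnm2, a phosphatidylinositol transfer protein (chr5:124118690-124249760), had 0.20 (SE 0.04). Ccdc3 had a log2 fold change of 0.58 (SE 0.11; chr2:5137776-5230878), and was apart in the saline arm, at 10.9 to 16.3 CPM in Control and 19.5 to 31.9 in Control+c-MSST. Tmem132a (chr19:10857822-10869940) and Trp53i11, a gene induced by p53 (chr2:93187548-93201759), had 0.33 (SE 0.06) and 0.30 (SE 0.06).

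Over all tested genes, the libraries of both arms were apart in the same direction for 8 higher (0.0487%) and 10 lower genes (0.0609%). Besides Il33, Parp4 and Ap2a1 these included St18, a transcription factor of oligodendrocytes and neurons, named after its values were seen (log2 fold change -1.04, SE 0.30, adjusted p = 0.11). All 9 libraries with c-MSST were on one side of all 10 without it for 3 genes, also named after their values were seen. Gprc5b, an orphan receptor, was lower (0.0122% of genes with Gm14326), at 92.6 to 127 CPM with c-MSST and 127 to 172 CPM without it, ranges that meet only by rounding (-0.25, SE 0.06, adjusted p = 0.0753). Gm14326 stood at 28.6 to 33.6 CPM against 33.7 to 39.5 CPM (-0.20, SE 0.04, adjusted p = 0.0637). Padi6, of the peptidylarginine deiminase family, was higher (0.00609% of genes), at 1.29 to 2.20 CPM against 0 to 1.25 CPM (1.2, SE 0.40, adjusted p = 0.153).

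The additive model assumes that c-MSST acts alike with and without MK-801. The test of the difference between arms called 0 genes (0%, edgeR, smallest adjusted p = 0.242) and had 1196 at an unadjusted p under 0.05 (7.29%), 640 with the larger value in MK-801 mice (3.90%) and 556 with the smaller (3.39%), while DESeq2 called 36. Il33 had a log2 fold change of -0.63 (SE 0.10) in saline mice alone and -0.31 (SE 0.08) in MK-801 mice alone, a difference of 0.31 (SE 0.13, adjusted p = 0.641). Gatm had -0.45 (SE 0.09) and -0.30 (SE 0.06), a difference of 0.15 (SE 0.12, adjusted p = 0.799). These p values do not show that the arms responded alike.

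The arms share no library, so each can be read in the other. Among all tested genes, 57.8% had the same sign in both. At an unadjusted p under 0.05, 5.59% of tested genes were higher and 6.4% lower in saline mice alone (12% in all), and 6.88% and 6.17% in MK-801 mice alone (13.1%). Of 56 genes with an unadjusted p under 0.001 in saline mice alone, 45 (80.36%) had the same sign in MK-801 mice, with 11 past an unadjusted p of 0.05 in the same direction and 0 in the opposite one. Their median log2 fold change in MK-801 mice, signed by the saline direction, was 0.07, against a median absolute value of 0.36 in the arm that chose them. Of 133 genes with such a p in MK-801 mice alone, 79 (59.4%) had the same sign in saline mice, 16 past 0.05 in the same direction and 5 in the opposite one, with a median signed log2 fold change of 0.03 against 0.48. At an unadjusted p under 0.01, 388 of 526 genes chosen in saline mice (73.76%) had the same sign in MK-801 mice, 96 past 0.05 in the same direction and 5 in the opposite one. Of 703 genes chosen in MK-801 mice at that threshold, 470 (66.86%) had the same sign in saline mice, with 94 and 12 past 0.05 and a median signed log2 fold change of 0.07. The number called in each arm depended on the fit. With each arm fitted alone, 0 genes (0%) passed in saline mice and 31 (0.189%) in MK-801 mice, 23 higher (0.14%) and 8 lower (0.0487%). With 1 coefficient per group over all 19 libraries, 54 passed in saline mice and 0 in MK-801 mice.

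**Figure D4:**
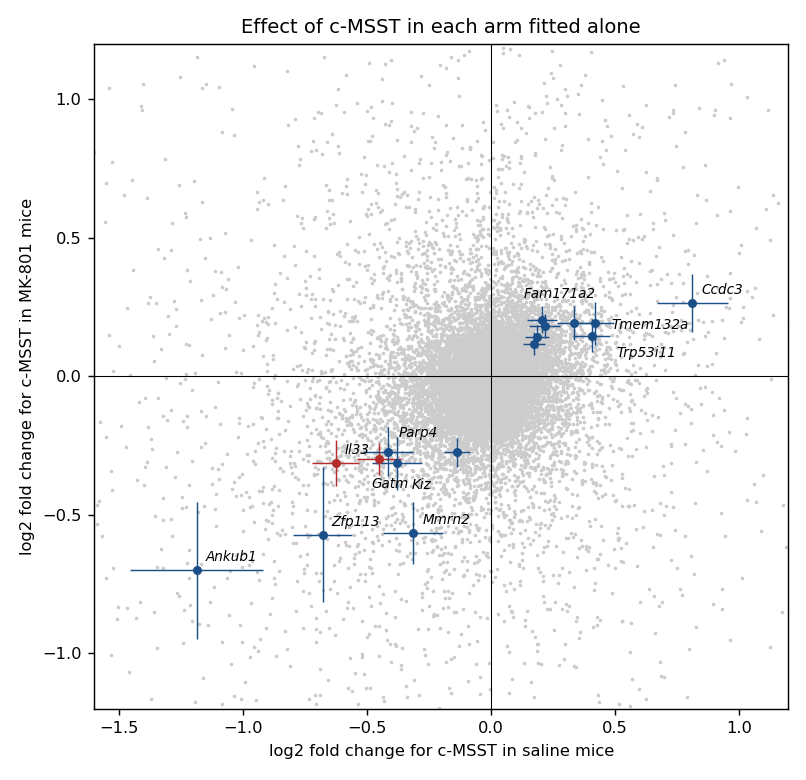
Each grey point is a tested gene, with its log2 fold change for c-MSST in saline mice (x axis) and in MK-801 mice (y axis), each arm fitted alone, and genes outside the axes not drawn. Red marks Il33 and Gatm, blue the other 14 genes with the smallest pooled p, with ± SE, and all 16 lie in the quadrants of equal sign. These 16 were picked by pooled p over the same libraries. That choice favours an equal sign in both arms, so their position is not a test of likeness between arms.

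Synaptic genes stood slightly higher with c-MSST, and none passed the test. Counts at an unadjusted p under 0.05, here and in the lists below, stand beside 8.33% higher and 8.28% lower among all tested genes. Of 16 presynaptic genes 13 had a positive log2 fold change (median 0.08), with 6 higher and 0 lower at an unadjusted p under 0.05. Of 16 postsynaptic scaffold genes 13 were positive (median 0.10), with 8 higher and 0 lower. Bsn, a scaffold of the presynaptic active zone, averaged 1703 CPM with c-MSST and 1423 CPM without it (0.26, SE 0.06, adjusted p = 0.0663). Snap25, a SNARE protein of vesicle fusion and the presynaptic member of highest level, had 0.06 (SE 0.08, adjusted p = 0.768). Shank1, a scaffold of the postsynaptic density, averaged 1292 and 1128 CPM (0.21, SE 0.07, adjusted p = 0.175), and Camk2a, a calcium-dependent kinase, had 0.14 (SE 0.06). With 3 tissue scores (striatal, septal, choroid plexus) as covariates, the presynaptic median was -0.04 and the postsynaptic median 0.05. Without the high-Zic1 libraries they were 0.00 and 0.05. Of 12 neuronal housekeeping genes 6 were positive and 6 negative (median 0.04). Of these, Slc17a7, the vesicular glutamate transporter of cortical excitatory neurons, averaged 1231 CPM with c-MSST and 1014 CPM without it (0.28, SE 0.06, adjusted p = 0.0626), and Map2, a dendritic microtubule protein, had -0.05 (SE 0.04).

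Immediate early genes, induced within minutes of neuronal firing, were positive in 16 of 19 (median 0.16), with 6 higher and 0 lower at an unadjusted p under 0.05. The median was 0.04 in saline mice alone and 0.42 in MK-801 mice alone, and the difference between these medians was not tested. Dusp1, a phosphatase that limits MAP kinase signalling, stood at 26.4 ± 5.84 CPM in Control (n = 6) and 31.4 ± 8.87 in Control+c-MSST (n = 5), which overlapped. It stood at 15.9 ± 1.82 CPM in SCZ (n = 4) and 41.2 ± 8.77 in SCZ+c-MSST (n = 4), which did not (pooled log2 fold change 0.73, SE 0.19, adjusted p = 0.0942). Fitted alone (edgeR), saline mice had 0.25 (SE 0.19, adjusted p = 0.640) and MK-801 mice 1.37 (SE 0.15, adjusted p = 0.0095). The difference between arms was 1.12 (SE 0.28, edgeR, adjusted p = 0.386). Calls in the MK-801 arm depended on the fit, as given above. Egr1 and Homer1, the members of highest level, had 0.03 (SE 0.13) and 0.14 (SE 0.08).

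Receptor genes were mixed. Of 16 NMDA and AMPA receptor subunits, targets of glutamate, 11 were positive (median 0.06), with 3 higher and 0 lower at an unadjusted p under 0.05. Of 16 tested GABA-A receptor subunits 8 were positive (median -0.02), with 1 higher and 2 lower. The sign of that median changed in 14 of 37 alternatives, including all 3 on FPKM values. Gabrb2, an abundant beta subunit, averaged 382 CPM with c-MSST and 338 CPM without it (0.18, SE 0.06, adjusted p = 0.155). Gabrq, the theta subunit, averaged 1.37 and 3.23 CPM (-1.21, SE 0.34, adjusted p = 0.103). Gabre, the epsilon subunit named in the series title, lay near the limit of detection. Its counts were 0 to 22 in Control, 0 to 21 in Control+c-MSST, 16 to 108 in SCZ and 0 to 5 in SCZ+c-MSST. Its groups overlapped in the saline arm and were apart in the MK-801 arm, and the pooled log2 fold change was -1.75 (SE 0.95, adjusted p = 0.371).

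The iron and mechanical lists held no called gene. Of 21 tested genes of iron storage and transport 11 were positive (median 0.01), with 0 higher and 4 lower at an unadjusted p under 0.05. Fth1, the heavy chain of ferritin, averaged 709 CPM with c-MSST and 804 CPM without it (-0.19, SE 0.07, adjusted p = 0.19). Trf, the iron carrier transferrin, averaged 153 and 207 CPM (-0.47, SE 0.14, adjusted p = 0.121), and it is also on the myelin list. Of 18 genes of the Nrf2 response and ferroptosis defence 10 were positive (median 0.02), and Gpx4, which removes lipid peroxides, had 0.04 (SE 0.03). Of 18 genes of mechanosensitive channels 11 were positive (median 0.06). Within that list Tmem63c had 0.17 (SE 0.04, adjusted p = 0.0663) and its relative Tmem63a -0.43 (SE 0.11, adjusted p = 0.0929). Of 15 heat shock genes 8 were positive (median 0.01), with the chaperone genes Dnajb1 at 0.18 (SE 0.05, adjusted p = 0.0753) and Cryab at -0.38 (SE 0.10, adjusted p = 0.0986).

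**Figure D5:**
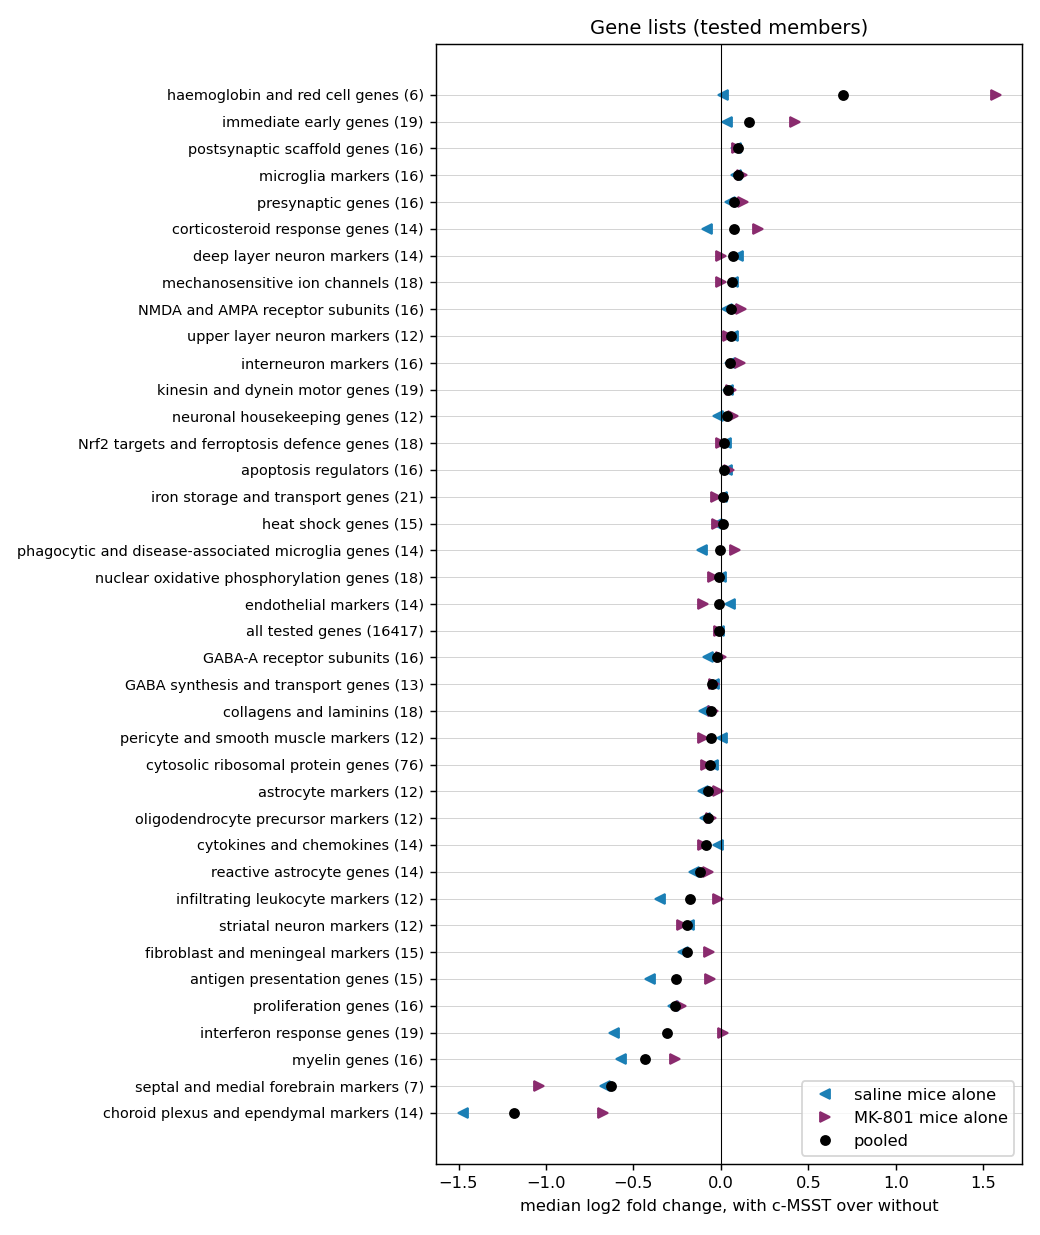
Median log2 fold change (x axis) of the tested members of 38 lists and of all tested genes, pooled (black), in saline mice alone (left triangle) and in MK-801 mice alone (right triangle). Myelin (-0.43), septal (-0.63) and choroid plexus (-1.19) lists are the lowest, and haemoglobin (0.70) the highest.

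Glial lists went different ways. The 16 myelin genes had 15 members lower at an unadjusted p under 0.05 and 0 higher, with medians of -0.57 in saline mice and -0.27 in MK-801 mice. With the 3 tissue scores as covariates the pooled median was -0.21. With each library left out in turn it was -0.49 to -0.32. The myelin score was -1.57 in Control+c-MSST replicate 6, and -0.23, 0.04, -0.45 and -0.17 in replicates 1, 2, 4 and 7. The summed level of the myelin genes was 2710 to 4750 CPM in Control and 1098 to 3357 in Control+c-MSST. It was 3842 to 4494 CPM in SCZ and 3052 to 4055 in SCZ+c-MSST, so the groups overlapped in both arms. Mbp had -0.46 (SE 0.16, adjusted p = 0.175) and Ermn, a cytoskeletal protein of myelinating cells, -0.57 (SE 0.17, adjusted p = 0.111). Of 12 oligodendrocyte precursor markers 10 were negative (median -0.07) and of 12 astrocyte markers 10 (median -0.07). Gfap, a filament of reactive astrocytes, had -0.38 (SE 0.23, adjusted p = 0.421). Microglia markers were positive in 15 of 16 (median 0.10), with 1 higher and 0 lower at an unadjusted p under 0.05. At that threshold 8.33% of all tested genes were higher and 8.28% lower. The sign was the same in both arms for 9 of these 16 genes, and for 57.8% of all tested genes.

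Among 14 tested cytokines and chemokines Il33 was the only called gene. Tnf, Il6, Ccl2 and Ccl4 had too few counts to be tested. Cx3cl1, the neuronal ligand of the microglial receptor Cx3cr1, averaged 639 CPM with c-MSST and 566 CPM without it (0.18, SE 0.05, adjusted p = 0.116). Interferon response genes were negative in 16 of 19 (median -0.31), and without Control replicate 4 the median was -0.10. At an unadjusted p under 0.05, 0 were higher and 2 lower, where 8.28% of all tested genes were lower. Antigen presentation genes were negative in 13 of 15 (median -0.26). Both medians were further from 0 in saline mice (-0.61 and -0.41) than in MK-801 mice (0.01 and -0.06), and the difference was not tested.

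Of the markers of tissue next to the prelimbic cortex, none passed the test. All 7 septal and medial forebrain markers were negative (median -0.63), with 5 lower at an unadjusted p under 0.05, and without the high-Zic1 libraries their median was 0.05. Zic1 is on this list, and those libraries, all without c-MSST, were chosen by it, so the choice itself moves this median up. Zic4 averaged 1.85 CPM with c-MSST and 4.39 CPM without it (-1.28, SE 0.27, adjusted p = 0.0637). All 14 choroid plexus and ependymal markers were negative (median -1.19), with 10 lower at an unadjusted p under 0.05. Without Control replicate 2 the median was -0.68. Foxj1, a regulator of motile cilia, averaged 3.62 and 6.02 CPM (-0.75, SE 0.19, adjusted p = 0.0843). The 12 striatal markers had a median of -0.20, with none past an unadjusted p of 0.05. That median was positive in 6 of 37 alternatives, among them 0.02 without Control replicate 4 and 0.72 with the septal score as a covariate. Their part in the results for other genes was not tested beyond the covariate fits given above.

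Haemoglobin and red cell genes were positive in 6 of 6 (median 0.70), with none past an unadjusted p of 0.05. In saline mice alone 3 of 6 were positive (median 0.01), and in MK-801 mice alone 6 of 6 (median 1.57). Hbb-bs, a beta-globin gene, had -0.48 (SE 1.46) in saline mice and 5.87 (SE 1.84) in MK-801 mice, and Hba-a2 had 0.90 (SE 0.78) and 1.29 (SE 0.67). In Control+c-MSST, Hbb-bs stood at 91.6 CPM in replicate 2 and at most 3.82 CPM in the others. Almost no counts of another beta-globin gene, Hbb-b1, were present in 5 libraries. They came from Control, Control+c-MSST and SCZ+c-MSST, but not from SCZ. Over 37 alternatives, which included leaving these libraries out, the pooled median was 0.28 to 1.00. Whether a beta-globin pattern that differs between libraries enters the medians of each arm was not tested. The summed level of the haemoglobin and red cell genes reached 1296 CPM in SCZ+c-MSST and at most 257 CPM in any other group. Without SCZ+c-MSST replicate 2 the pooled median was 0.28. Endothelial markers were positive in 6 of 14 (median -0.01, a sign that changed in 13 of 37 alternatives, including all 3 on FPKM values). Esam, an adhesion protein of endothelial junctions, had 0.29 (SE 0.07, adjusted p = 0.0673). Proliferation genes were negative in 16 of 16 (median -0.26), with 2 lower at an unadjusted p under 0.05 and a median of -0.14 without Control+c-MSST replicate 6 and 0.03 with the myelin score as a covariate. Cytosolic ribosomal protein genes were negative in 66 of 76 (median -0.06), with 14 lower and 0 higher. That median was 0.02 with the 3 tissue scores as covariates and 0.01 without the high-Zic1 libraries.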

How the data were processed

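RNA was sequenced in 19 libraries of left prelimbic cortex, made with a stranded total RNA kit per the labels' protocols. Estimated counts for each gene were deposited by the authors, with FPKM values that they had scaled to gene length and depth. The build was mm10, and the tools named in the submitters' processing notes were StringTie 1.3.5, Picard 2.18.29, STAR 2.7.7a and fastp 0.19.5. Annotation and use of strand are not given in the sources used here. Counts were whole as deposited, so none was rounded.

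Of 20938 genes, filterByExpr, given the 4 groups, kept 16417. The additive model (MK-801 and c-MSST) was fitted with edgeR 4.0.16 in R 4.3.3 (TMM, glmQLFit robust, glmQLFTest), with Benjamini-Hochberg adjustment over all kept genes and calls at an adjusted p under 0.05. The SE is the absolute log2 fold change divided by the root of F. Each arm was also fitted alone, and the interaction over all libraries. List scores are mean log2 CPM (prior count 2), centred per gene. Alternatives used DESeq2 1.42.0, limma 3.58.1 (voom, and log2 FPKM with pseudocounts of 1 and 0.1), other filters and scalings, covariates and omitted libraries. The scripts were tested on simulated data.

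The genes named were Gabre, in each direction the 8 genes of smallest p at a mean of at least 1 CPM (without predicted names), and the called and 2 highest members of each list. Genes outside this rule, named after their values were seen, were Dusp1, Ermn, Trf, Zic4, Foxj1, Cryab, Dnajb1, Tmem63a, Tmem63c, Gabrq, Esam, Padi6, Gprc5b, Gm14326, St18 and Tdrp. A few genes covered by these rules are not reported here. The comparison, members and lists were chosen with earlier results of these data known. Same-numbered libraries did not deviate together (19 pairs, r from -0.1 to 0.14, 1 over 0.1).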

Additional observations from a re-analysis of the deposited data

Results flagged for a closer look

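Across 424 groups of 4 to 6 libraries, 28 (6.6%) had 1 library far from the others by Dixon's test at the 95% level, where chance flags about 1 in 20. Levels are in CPM.

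Control+c-MSST replicate 6 was low for Fth1 (506), Cryab (19.2), St18 (3.33) and Gprc5b (92.6). Control replicate 2 was high for the choroid plexus genes Ttr (1607) and Kl (88.0) and for Gprc5b (172), and Control replicate 3 for the vessel genes Vtn (56.0) and Esam (14). SCZ replicate 5 was high for Gfap (129) and Ankub1 (2.93), and low for the deep layer gene Tbr1 (144) and for Atp5b (733). In Control+c-MSST replicate 2, Hbb-bs (91.6) and Pcna (29.9) were high.

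Single high values were Bcl11b in SCZ replicate 3 (278), Kif5a and Ttr in SCZ replicate 1 (3784 and 7.78), Map2 in Control replicate 1 (2924) and Slc1a2 in Control+c-MSST replicate 1 (5697). Tbr1 in SCZ+c-MSST replicate 5 (242), Tdrp in SCZ+c-MSST replicate 4 (4.91) and Reln in SCZ+c-MSST replicate 3 (286) were high too. Low values were Aldoc in SCZ+c-MSST replicate 5 (490.0), Kl and Mrc1 in SCZ+c-MSST replicate 3 (3.02 and 7.29), and Vim and Tmem63c in SCZ+c-MSST replicate 4 (24.0 and 104). Neither Il33 nor Gatm had such a library.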

How the results depend on the processing

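The pooled count of 2 genes was also 2 with DESeq2 size factors, upper-quartile scaling, no filter, a filter of 1 CPM, 1 coefficient per group, or without Control replicates 2 and 3. DESeq2 gave 527 and voom with quality weights 259. It was 0 without the MK-801 term, with the septal score, with the 3 tissue scores, and on FPKM values under all 3 settings. The fit without the 6 high-Zic1 libraries kept only replicate 1 of SCZ, so no count is given for it. In that fit Tdrp had a log2 fold change of -3.87, against -3.03 with all libraries. Among settings chosen after the data were seen, an adjusted p under 0.1 gave 269, and the myelin score, or leaving out 5 libraries with almost no Hbb-b1 counts, gave 0. Leaving out each library gave 0 to 231. With the replicate number as a block, which shared numbers alone do not justify, the pooled count was 0, the interaction 0, the saline arm 0 and the MK-801 arm 53 against 31. The interaction count of 0 became 36 by DESeq2, and 0 to 1 with each library left out. The saline count of 0 became 54 in the 4-group fit and 0 to 1 with each library left out; the MK-801 count of 31 became 0, and 12 (without SCZ replicate 3) to 65 (without SCZ replicate 1). The cause was not tested. All 16 genes with the smallest p kept their direction in 37 of 37 alternatives. They were picked by p in these libraries and the alternatives reuse them, so this is not independent support. Depth was compared only between libraries with and without c-MSST, where no difference was detected.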
